A study of Mus musculus with 4 samples.

Results

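Erythroid cells were chosen by globin content from single-cell RNA libraries of mouse bone marrow, as the cells in which the 4 adult globin genes, Hba-a1, Hba-a2, Hbb-bs and Hbb-bt, together held at least 20% of the unique molecular identifiers (UMIs, 1 per captured mRNA molecule). Barcodes with at least 200 detected genes and at most 15% of UMIs from the mitochondrial genome were considered, with no upper limit on genes, and 374 of 34312 such cells met the rule. The marrow came from femur and tibia of C57/B6 mice aged 12 months, after lysis of red cells, and was captured with 10x Genomics 3′ chemistry (v3). TWT mice carried intact IL6, mDia1 and miR146a genes (IL6+/+, mDia1+/+, miR146a+/+). IL6 KO mice lacked only IL6 (IL6-/-, mDia1+/+, miR146a+/+). DKO mice kept IL6 and lacked mDia1 and miR146a (IL6+/+, mDia1-/-, miR146a-/-), a model of myelodysplastic syndrome, and TKO mice lacked all 3 (IL6-/-, mDia1-/-, miR146a-/-). Each genotype was 1 library, and the sources used here do not say how many mice went into it. No test between genotypes was therefore possible. Intervals are exact at 95% and speak of counting error alone. The lysis step removes red cells, so the shares describe what the preparation left and not the marrow in the animal.

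Erythroid precursors arise from megakaryocyte-erythroid progenitors and divide several times under erythropoietin while they make heme and hemoglobin. They then leave the cell cycle, condense and expel the nucleus, and become reticulocytes, which keep translating stored globin mRNA while they clear mitochondria, ribosomes and other proteins. Hemoglobin is built from paired α and β chains, and red cells are known for mRNA pools in which globin transcripts outweigh all others.

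The promoters of the 4 genes that chose the cells are shown because these genes define the population and because their pairwise likeness bears on how their counts can be read. The 120 bases before each start site, from RefSeq on GRCm38.p6, are printed on the gene's strand, with 3 promoter boxes in capitals. These are the CCAAT box, the CACCC box that erythroid Krüppel-like factors bind, and the TATAA box. Hba-a1 lies at chr11:32283552-32283671 and Hba-a2 at chr11:32296372-32296491, both on the plus strand. Hbb-bs lies at chr7:103827929-103828048 and Hbb-bt at chr7:103813924-103814043, both on the minus strand.
Hba-a1: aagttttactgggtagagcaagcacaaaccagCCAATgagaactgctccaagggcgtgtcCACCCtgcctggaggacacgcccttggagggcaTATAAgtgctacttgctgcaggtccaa
Hba-a2: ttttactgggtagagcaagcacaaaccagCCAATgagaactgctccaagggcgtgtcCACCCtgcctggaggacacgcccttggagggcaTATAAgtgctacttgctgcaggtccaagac
Hbb-bs: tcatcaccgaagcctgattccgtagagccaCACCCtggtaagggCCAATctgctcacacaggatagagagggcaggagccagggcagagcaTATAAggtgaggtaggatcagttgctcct
Hbb-bt: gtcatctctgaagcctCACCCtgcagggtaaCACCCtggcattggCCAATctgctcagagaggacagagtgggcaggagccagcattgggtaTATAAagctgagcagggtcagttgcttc

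All 4 promoters held the 3 motifs on the gene's strand, in windows where 0.167% of 32851 RefSeq promoters of the same length held all 3. CACCC alone stood on the gene's strand in 16.2% of those promoters, CCAAT in 11.3% and TATAA in 8.53%, or in 31.7%, 21.3% and 11.8% when either strand was searched. The order of motifs differed between the families. CCAAT preceded CACCC in the α genes and followed it in the β genes, and Hbb-bt carried a second CACCC. The Hba-a1 and Hba-a2 promoters shared an unbroken run of 117 bases, whereas the longest run shared by Hbb-bs and Hbb-bt was 14 bases. The transcripts were alike in both pairs: 67.5% of the 50-base words of Hba-a1 also occur in Hba-a2, and 65.8% of those of Hbb-bs in Hbb-bt. The split of counts within each pair is therefore treated as uncertain. Whole transcripts were compared here, and the likeness of the 3′ ends, which this 3′ chemistry captures, was not tested. The sum of the 4 genes chose the cells, and values of single globins carry this uncertainty.

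The libraries held 8423 barcodes in TWT, 8640 in IL6 KO, 10866 in DKO and 9013 in TKO, with 61292684 to 85145074 UMIs each. After the filter 7740, 8101, 10162 and 8309 cells remained. Pairs of libraries had between 19 and 36 barcode sequences in common, and none of those was an erythroid cell in both. The X-inactivation transcript Xist had 99 UMIs in erythroid cells of IL6 KO and 0 in those of the other libraries, so IL6 KO also differed from the rest in this gene. Diaph1, which encodes the formin mDia1, had 40 UMIs in erythroid cells of TWT and 47 of IL6 KO, and 0 in those of DKO and TKO. Of these, 37 in TWT and 45 in IL6 KO were in the leukocyte-marked group defined below. The red cell group defined below had 2 in TWT and 2 in IL6 KO, so the 0 in DKO and TKO says little of that group. Il6 had 0, 5, 0 and 4 UMIs in erythroid cells of TWT, IL6 KO, DKO and TKO, and 0.835, 10, 0.238 and 8.75 CPM (UMIs per 1000000 UMIs other than the 4 globins) in all other cells. Which part of Il6 was deleted is not stated in those sources, and 3′ UMIs from outside it check nothing about the deletion.

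Erythroid cells were least frequent in DKO marrow. They made up 1.94% of cells in TWT (150 cells, 1.64 to 2.27), 1.47% in IL6 KO (119 cells, 1.22 to 1.76), 0.236% in DKO (24 cells, 0.151 to 0.351) and 0.975% in TKO (81 cells, 0.775 to 1.21). The DKO share was 0.122 times the TWT share (0.0757 to 0.188) and 0.242 times the TKO share (0.147 to 0.386). TKO stood between them at 0.503 times TWT (0.379 to 0.663), and IL6 KO at 0.758 times TWT (0.591 to 0.971). All of these ratios exclude 1 by counting error, which says nothing of how far 2 marrows of the same genotype would differ.

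The minimum of 200 detected genes removed more globin-rich barcodes than it kept. Below it lay 469 globin-rich barcodes in TWT, 344 in IL6 KO, 28 in DKO and 489 in TKO, with a median of 133, 126, 140.5 and 110 detected genes. They carried 61.4% of all globin UMIs of the TWT library, 59.9% of IL6 KO, 39.3% of DKO and 74.1% of TKO, and the erythroid cells themselves 26.8%, 29.9%, 52.7% and 13.5%. Without the minimum, globin-rich barcodes were 7.36% of all barcodes in TWT (6.81 to 7.94), 5.36% in IL6 KO (4.89 to 5.85), 0.488% in DKO (0.366 to 0.638) and 6.34% in TKO (5.84 to 6.86). DKO stayed the lowest, at 0.0663 times TWT (0.0491 to 0.0878). TKO moved close to TWT, at 0.861 times its share (0.767 to 0.966). The shortfall of TKO against TWT thus depended on the gene minimum, and that of DKO did not. Whether the barcodes under 200 genes are whole cells, fragments or droplets with free globin RNA was not tested. In the remaining cells globins held 0.267%, 0.171%, 0.0149% and 0.262% of UMIs in TWT, IL6 KO, DKO and TKO.

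**Figure D1:**
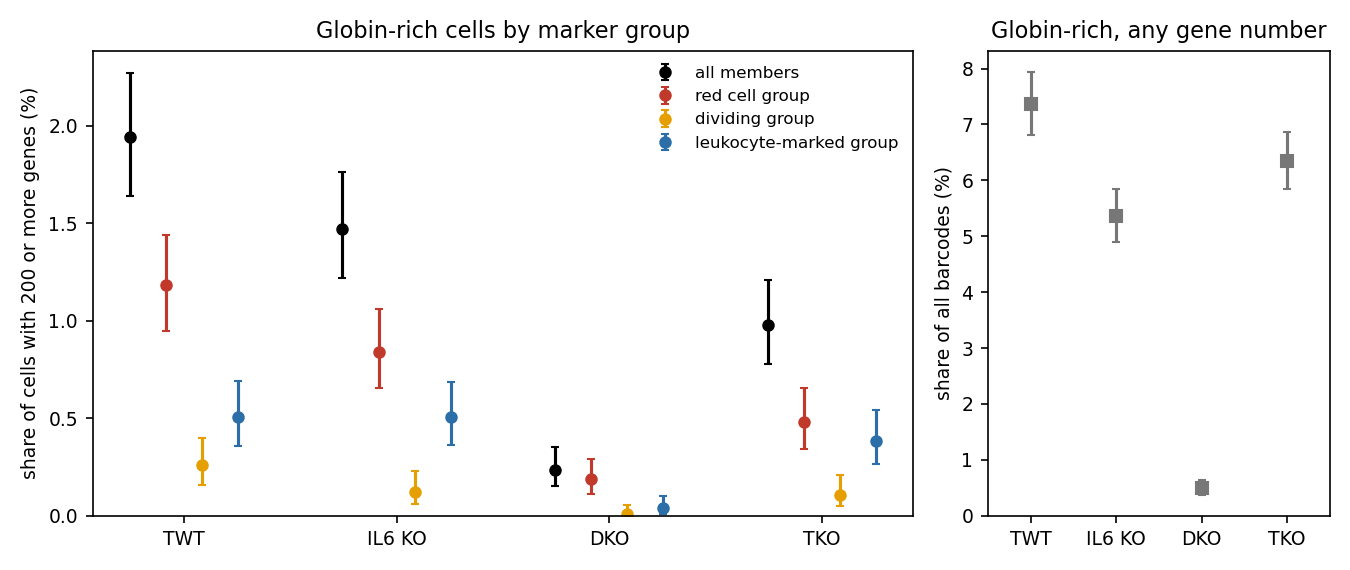
The left panel shows the percent of filtered cells that were erythroid and the percent in each of 3 marker groups, per library, and the right panel the percent of all barcodes that were globin-rich at any number of detected genes. Points are shares and error bars exact 95% intervals, and DKO is the lowest library in both panels, at 0.236% and 0.488%, while TKO stands at 0.975% and 6.34%.

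The label was checked with Alas2, the first enzyme of erythroid heme synthesis, and Slc4a1, the band 3 anion exchanger of the red cell membrane. Alas2 had a UMI in 145 of 150 erythroid cells of TWT, 117 of 119 of IL6 KO, 23 of 24 of DKO and 76 of 81 of TKO. Slc4a1 had a UMI in 128, 91, 19 and 62 of them. With each cell thinned to 200 non-globin UMIs, Alas2 had a UMI in 68%, 72.3%, 50% and 58% of members, from median depths of 644, 685, 983 and 982. Among B cells thinned alike, from median depths of 5314 to 6462, it had one in 3 of 4558 cells of TWT and in 0 of 4107, 0 of 1446 and 0 of 3320 of the others, and 3 counts in place of 0 would be 0.073%, 0.207% and 0.0904%. Alas2 was thus found far more often in members than in B cells. The B cells were chosen by B cell genes and by a low share of globin, which kept globin-rich cells out of them. The contrast was therefore partly set by the choice of cells. Whether each Alas2 UMI was a cell's own RNA was not tested. Next, 12 erythroid genes without globins (among them Alas2, Slc4a1, Klf1, Gata1, Ermap, Rhd and Trim10) were summed. A level of 10 per 1000 UMIs other than globin was set, with at least 5 UMIs. It was reached by 72% of members in TWT, 62.2% in IL6 KO, 75% in DKO and 54.3% in TKO, leukocyte-marked members (defined below) not counted. Some leukocyte-marked members reached 10 per 1000 as well, so these percentages are not the share of all members that did. Few cells free of leukocyte markers reached that level below the globin threshold, namely 9, 4, 1 and 5.

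By marker genes the members fell into 3 groups, whose limits were set after the values had been seen. Leukocyte-marked cells carried a neutrophil list at 100 or more per 1000 non-globin UMIs, or a monocyte, macrophage, B cell, T and NK cell, basophil or plasma cell list at 2.5 or more per 1000 with at least 6 UMIs. Dividing cells had no such markers and held S and G2/M phase genes at 15 or more per 1000 with at least 5 UMIs. The remaining cells formed the red cell group. It counted 91 cells in TWT, 68 in IL6 KO, 19 in DKO and 40 in TKO, which is 60.7%, 57.1%, 79.2% and 49.4% of members. Dividing cells numbered 20, 10, 1 and 9, and leukocyte-marked cells 39, 41, 4 and 32. The name of the dividing group rests on cycle genes alone. Its cells ran from 200 to 3196 detected genes in TWT and from 203 to 2122 in TKO. The cell with the fewest genes held 85.8% globin in TWT and 89.3% in TKO, so some were like the red cell group in both traits. The limits cut through a range. Between 10 and 20 per 1000 of cycle genes lay 13, 10, 1 and 8 members without leukocyte markers, and between 1.5 and 4 per 1000 of another leukocyte list than the neutrophil list, with at least 6 UMIs, 10, 17, 0 and 9.

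All groups were less frequent in DKO than in TWT. The red cell group was 0.159 times as frequent among filtered cells (0.0916 to 0.263), dividing cells 0.0381 times (0.000919 to 0.238) and leukocyte-marked cells 0.0781 times (0.0203 to 0.217). In TKO the red cell group was 0.409 times as frequent as in TWT (0.275 to 0.6) and dividing cells 0.419 times (0.168 to 0.963), while leukocyte-marked cells, at 0.764 times, could not be told from TWT by counting error (0.464 to 1.25). In IL6 KO the red cell group stood at 0.714 times TWT (0.514 to 0.988), dividing cells at 0.478 times (0.2 to 1.07) and leukocyte-marked cells at 1 times (0.632 to 1.6). Within the red cell group DKO held 0.388 times the TKO share (0.212 to 0.686).

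**Figure D2:**
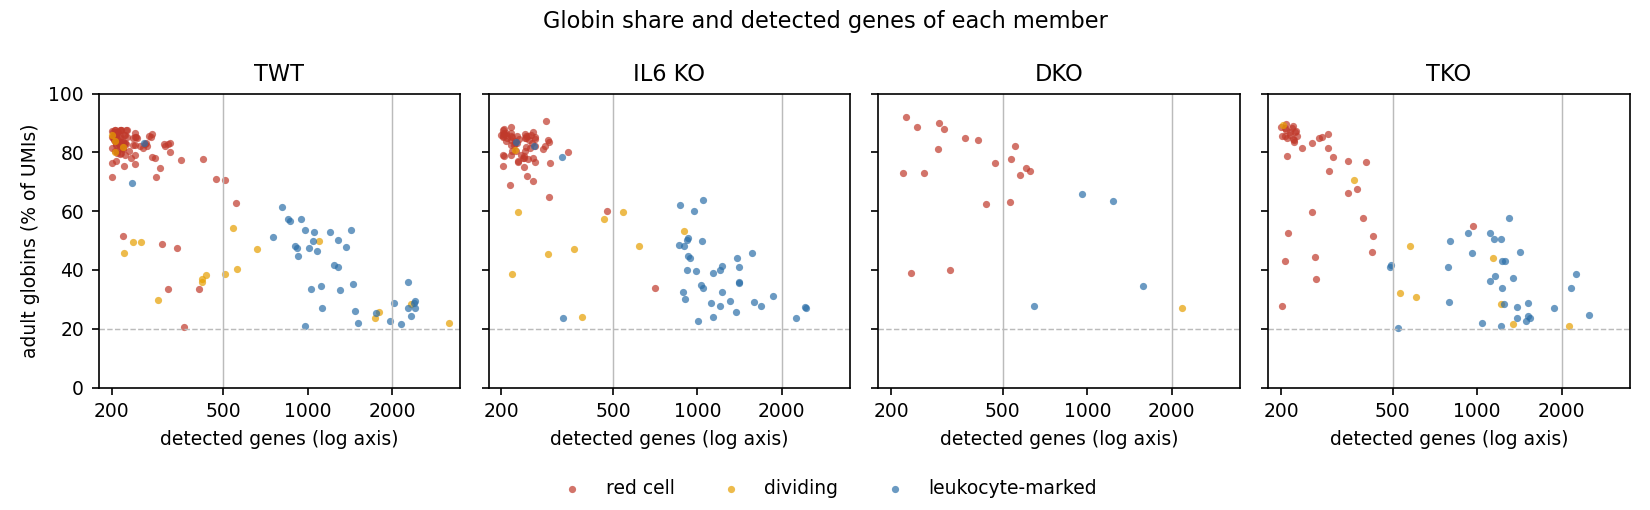
Each point is an erythroid cell, with detected genes on a log axis and the percent of its UMIs in the 4 adult globins, in 1 panel per library and coloured by marker group. Grey lines mark 500 and 2000 genes and the dashed line the 20% rule, and the red cell group crowds near 200 genes and 80% globin while leukocyte-marked cells spread from about 500 genes upward.

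Stages by detected genes followed these groups closely. Members with 200 to under 500 genes were 102 in TWT, 78 in IL6 KO, 13 in DKO and 43 in TKO, or 68% (59.9 to 75.4), 65.5% (56.3 to 74), 54.2% (32.8 to 74.4) and 53.1% (41.7 to 64.3) of members. At 500 to under 2000 genes stood 38, 38, 10 and 34 cells, and at 2000 or more 10, 3, 1 and 4. The intervals of the libraries overlap at each stage. The lowest stage was made of red cell group cells in 87.3% of TWT, 85.9% of IL6 KO, 100% of DKO and 90.7% of TKO members. Leukocyte-marked cells made up 76.3% of the middle stage in TWT, 89.5% in IL6 KO and 79.4% in TKO, but 4 of the 10 DKO cells, where 6 were of the red cell group. Detected genes were thus no scale of maturation alone. Near the globin threshold, 8, 5, 0 and 10 members held 20 to 25% globin, and 18, 11, 1 and 16 cells outside it held 15 to 20%. The red cell group had 1 cell among the former, in TWT.

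Leukocyte-marked members carried RNA of mature marrow leukocytes beside globin. Their neutrophil list, led by the alarmin genes S100a8 and S100a9, stood at 255092 CPM in TWT, 207327 in IL6 KO, 253642 in DKO and 211640 in TKO. The DKO value came mostly from 1 of 4 cells, with the list at 435 per 1000 non-globin UMIs. The other DKO cells held it at 14.2, 7.86 and 6.88 per 1000. Limits on the leukocyte lists chose this group, so high levels of these lists are no result. The neutrophil limit was passed by 22, 26, 1 and 20 members, the B cell limit by 12, 8, 1 and 7 and the monocyte limit by 8, 9, 3 and 11, and more than 1 list by 4, 9, 3 and 10. Alas2 was at 1428, 1642, 2217 and 1364 CPM in this group, well below its level in the red cell group. Thinned as above, 30.8%, 31.7%, 0% and 21.9% of these cells had an Alas2 UMI, against 91.2%, 92.6%, 94.7% and 82.5% of the red cell group, and the 0% rests on 4 DKO cells. The median member of the group had 1205, 1047, 1095 and 1230 detected genes and 41.7%, 39.1%, 49.1% and 36.7% globin. Scrublet, a doublet caller, marked 0, 1, 0 and 0 members in TWT, IL6 KO, DKO and TKO, although it called 2.48% of cells in TWT, 2.42% in IL6 KO and 2.09% in TKO. It marked 0 of 10162 DKO cells and so has not worked there. Whether these members are doublets of a red cell and a leukocyte, leukocytes with attached or free globin RNA, or another kind of cell was not tested.

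Summed over cells, the dividing group differed from the red cell group in most measured genes, and the same way in TWT and TKO. Deep cells weigh most in these sums. In TWT 2 of 20 dividing cells held 13757 and 8260 of the 44355 non-globin UMIs. In TKO 1 of 9 held 6880 of 20991. The intervals given for this group do not cover differences between its cells. Of 256 genes measured in both libraries, 80 were at least 2-fold higher in dividing cells in both (31.2% of measured genes) and 80 lower in both (31.2%). Relative to all UMIs, globins included, 87.5% of the calls were higher instead of 50%, since dividing cells held less globin. A gene was measured where it reached 50 CPM in either side and 30 UMIs over both. IL6 KO and DKO held fewer than 10000 non-globin UMIs in dividing cells and were not compared. Cycle genes chose this group, so their excess is no result. Mki67, a marker of cycling nuclei, was at 5479 CPM in dividing cells of TWT and 4145 of TKO.

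Heme synthesis was split by its steps. Alad, Tmem14c and Cpox, which act between the first step and protoporphyrin (Tmem14c moves a heme precursor across the inner mitochondrial membrane), were higher in dividing cells. Alad was at 1150 CPM against 72.3 in the red cell group of TWT, a ratio of 15.9 (5.84 to 60.6), and at 1620 against 36.9 CPM in TKO. Tmem14c stood at 1578 against 90.4 CPM in TWT, 17.5-fold (7.14 to 55.4), and Cpox at 1849 against 362 CPM, 5.11-fold (3.11 to 8.8), with 8.62-fold in TKO (3.63 to 24.9). The first and last enzymes went the other way. Alas2 was at 2322 against 11715 CPM in TWT, a ratio of 0.198 (0.159 to 0.244), and Fech, which inserts the iron, at 1713 against 4447 CPM, a ratio of 0.385. In TKO these ratios were 0.127 (0.0816 to 0.191) and 0.229. Relative to all UMIs, globins included, Fech turned in TWT, to a ratio of 1.28 (0.973 to 1.66), and Alas2 stayed lower at 0.656 (0.528 to 0.809). Of 9 measured genes of the heme list, 4 were higher and 3 lower in dividing cells.

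Genes of terminal maturation were lower in dividing cells, with 19 of 28 lower and 1 higher. Bpgm, whose enzyme makes the phosphoglycerate that loosens the grip of hemoglobin on oxygen, stood at 812 CPM against 14372 in TWT, a ratio of 0.0565 (0.0393 to 0.0789), and at 0.0609 in TKO (0.0351 to 0.0988). The ubiquitin ligase gene Mkrn1 was at 1736 against 18440 CPM in TWT, a ratio of 0.0941, and Bnip3l, the receptor that marks mitochondria for removal, at 767 against 7159 CPM, a ratio of 0.107. Of 10 genes of the ubiquitin list 8 were lower. Ribosomal protein genes were higher in 44 of 59. Membrane genes divided again: Aqp1, the water channel, was at 2209 against 199 CPM in TWT, 11.1-fold (5.95 to 23), and Rhd, of the Rh blood group complex, at 2818 against 289 CPM, 9.74-fold (5.77 to 17.6). Slc4a1, at 6583 CPM in dividing cells and 7936 in the red cell group of TWT, differed by less than 2-fold, but was 2.75-fold higher in dividing cells relative to all UMIs (2.36 to 3.19). Klf1, an activator of the β-globin promoter through CACCC, had 32 UMIs in 8 of the 20 dividing cells of TWT and 0 in its 91 red cell group cells. In TKO it had 5 UMIs in 4 of 9 dividing cells and 4 UMIs in 4 of 40 red cell group cells, or 238 CPM (77.3 to 556) and 147 CPM (40.2 to 378), and these intervals overlap. In the red cell group of IL6 KO and DKO it had 1 UMI each.

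**Figure D3:**
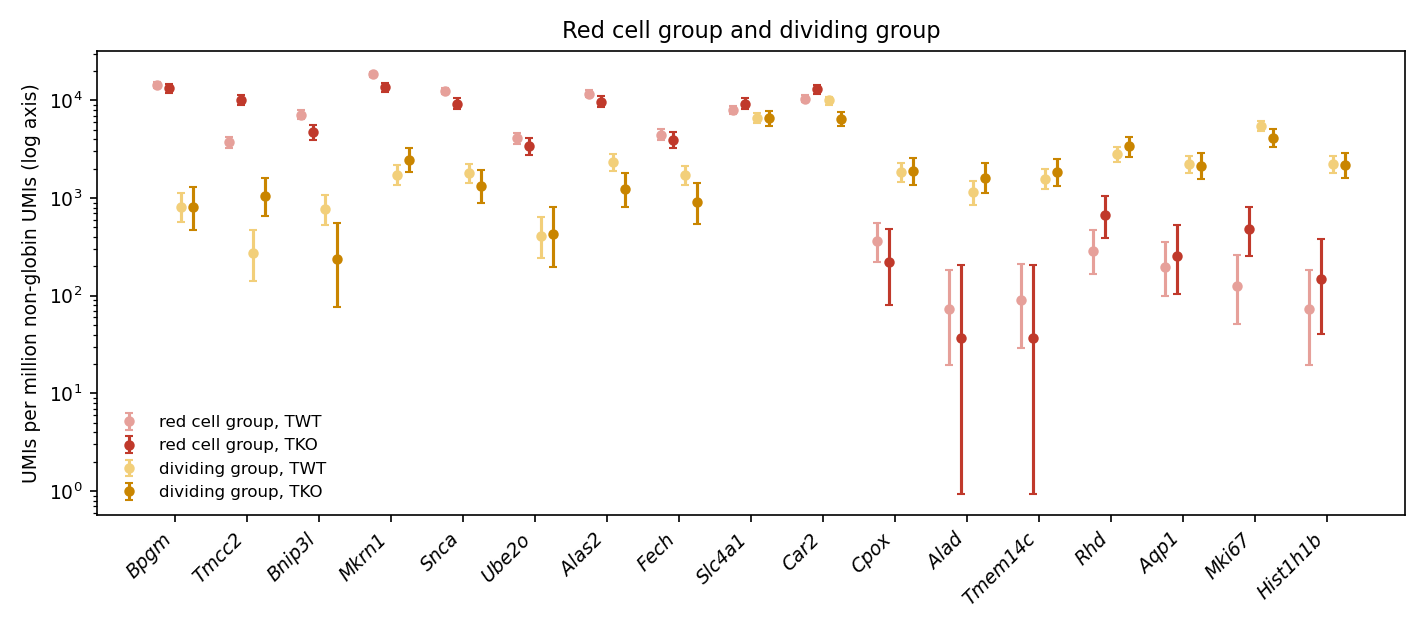
CPM of 17 genes on a log axis in the red cell group and in dividing cells of TWT and TKO, with exact 95% Poisson intervals. Alad, Tmem14c, Cpox, Aqp1 and Rhd lie higher in dividing cells and Alas2, Bpgm, Mkrn1 and Bnip3l lower in both libraries, for example Bpgm at 812 against 14372 CPM in TWT.

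Members with 2000 or more genes were also compared with those with 200 to under 500. Of 238 genes measured in TWT, IL6 KO and TKO, 90 were higher (37.8%) and 98 lower (41.2%) in all 3. Higher genes were 47.9% of these calls, 76.7% relative to all UMIs and 31.2% with median-of-ratios size factors. Terminal maturation genes were lower in 23 of 24, ubiquitin genes in 9 of 9 and heme synthesis genes in 4 of 5, and ribosomal protein genes were higher in 60 of 64. Alas2 stood at 1114 against 11354 CPM in TWT, 1116 against 12142 in IL6 KO, 976 against 9589 in TKO and 1211 against 9294 in DKO. Leukocyte transcripts moved with this contrast, since Lyz2, a lysozyme of neutrophils and macrophages, was among the highest genes. Of the upper stage, 8 of 10 cells in TWT and 3 of 3 in IL6 KO were leukocyte-marked, and 3 of 4 in TKO. The part of leukocyte RNA in these differences was not tested.

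IL6 KO was close to TWT at the lowest stage and less so above it. At 200 to under 500 genes, 2 of 360 measured genes were higher in IL6 KO (0.556%) and 12 lower (3.33%). In TKO 44 of 345 were higher (12.8%) and 43 lower (12.5%). At 500 to under 2000 genes the order turned. There 86 of 1075 genes were higher in IL6 KO (8%) and 100 lower (9.3%), and 34 of 1014 were higher in TKO (3.35%) and 39 lower (3.85%). The lower genes of IL6 KO at this stage held 10 of 18 membrane genes, 9 of 11 G2/M genes and 3 of 9 heme synthesis genes. At 2000 or more genes, on 3 cells of IL6 KO and 4 of TKO, 30 of 470 genes were higher in IL6 KO (6.38%) and 47 lower (10%), among them 7 of 8 neutrophil markers, and 32 of 479 were higher in TKO (6.68%) and 41 lower (8.56%). In TKO at 500 to under 2000 genes, higher genes were 46.6% of the calls, 65.9% relative to all UMIs and 35.4% with median-of-ratios size factors, and with the latter they moved from 39% to 26% in IL6 KO and from 43.8% to 32.1% in TKO at 2000 or more. DKO had too few UMIs at the lowest and the highest stage and was compared at 500 to under 2000 genes, where 108 of 597 genes were higher (18.1%) and 111 lower (18.6%). Higher genes were 49.3% of these calls, 14.8% relative to all UMIs and 36.4% with median-of-ratios size factors. That stage held 6 red cell group cells of 10 in DKO and 2 of 38 in TWT. There 18 of 29 terminal maturation genes were higher in DKO and 9 of 10 G2/M genes lower, and Bpgm was at 4823 CPM against 1614 in TWT. The groups rather than the stages were therefore used to compare genotypes, each group being chosen without regard to library.

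The red cell group of every library held Alas2, Slc4a1, Bpgm and Car2 within 2-fold of TWT. Its median cell had 222 detected genes in TWT, 237 in IL6 KO, 365 in DKO and 226 in TKO, and 82.8%, 83.2%, 76.3% and 83.3% globin. Alas2 had a UMI in 90 of 91, 68 of 68, 19 of 19 and 40 of 40 cells. Alas2 stood at 11715 CPM in TWT (10830 to 12652), 12427 in IL6 KO (11384 to 13541), 8398 in DKO (7095 to 9870) and 9731 in TKO (8593 to 10979). Slc4a1 was at 7936, 8952, 5427 and 9289 CPM. Both genes lay within 2-fold of TWT in every library. The DKO intervals lay below those of TWT for both, with Slc4a1 at 4391 to 6634 CPM in DKO and 7211 to 8715 in TWT. Bpgm was at 14372, 17117, 10626 and 13307 CPM and Car2, the carbonic anhydrase, at 10449, 11570, 8455 and 13049 CPM. The heme synthesis list summed to 21911, 21022, 20508 and 20052 CPM, a narrow range. Megakaryocyte markers, which played no part in choosing the group, were at 38, 2, 0 and 1 UMIs. Macrophage markers were at 15, 4, 2 and 2 UMIs and monocyte markers at 39, 28, 25 and 7. These counts came from 55315, 42004, 17505 and 27129 non-globin UMIs. The neutrophil list was at 18331, 26188, 25250 and 12680 CPM. Limits on the macrophage, monocyte and neutrophil lists chose this group, so low levels of these lists are no result.

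IL6 KO differed least from TWT in the red cell group. Of 333 measured genes 4 were higher (1.2%) and 16 lower (4.8%). Higher genes were 20% of these calls, 5.26% relative to all UMIs and 30% with median-of-ratios size factors. No heme synthesis gene of 5 and no terminal maturation gene of 30 passed the 2-fold rule. Ank1, the ankyrin that ties band 3 to spectrin, was at 548 against 271 CPM, 2.02-fold (1.01 to 4.16). S100a11, Tyrobp and Retnlg, of which the last 2 are known from myeloid cells, were the other 3 higher genes. Mxd1, a repressor that opposes Myc, was the lowest at 95.2 against 651 CPM (4 and 36 UMIs), a ratio of 0.146 (0.0378 to 0.408), whereas DKO had 457 and TKO 1106 CPM. The mitochondrial transcript mt-Nd1, for a subunit of respiratory complex I, was at 571 against 2224 CPM, a ratio of 0.257 (0.159 to 0.4).

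In TKO 40 of 333 genes were higher than in TWT (12%) and 30 lower (9.01%). Higher genes were 57.1% of these calls and 72.9% relative to all UMIs. Malat1, a nuclear long noncoding RNA, led the higher genes with 23775 against 3507 CPM, 6.78-fold (5.77 to 8). Cldn13, a claudin, was at 922 against 145 CPM, 6.37-fold (2.79 to 16.3), and Ermap, an erythroid membrane protein, at 1253 against 271 CPM, 4.62-fold (2.45 to 9.13). Lpin2, Dennd4a and Wnk1 were 5.91-fold, 4.65-fold and 4.47-fold higher. Among 15 membrane genes 4 were higher and none lower, and among 32 terminal maturation genes 5 were higher and 1 lower. The 5 heme synthesis genes all stayed within 2-fold.

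Immunoglobulin and mitochondrial transcripts were lower in TKO. The 2 measured B cell markers and the 1 measured plasma cell marker were lower. Ighm, the heavy chain of IgM, had 41 UMIs in TWT, 10 in IL6 KO, 2 in DKO and 0 in TKO, and Igkc, the κ light chain, 98, 107, 1 and 14. Immunoglobulin transcripts held 0.345%, 0.374%, 0.0286% and 0.0811% of non-globin UMIs of the red cell group, and 2.78%, 2.13%, 0.13% and 0.896% of all other cells, so the same 2 libraries were low in both. Of the mitochondrial genome 8 of 9 measured genes were lower, with a median log2 ratio of -2.00, against 0.0195 over all 333 genes. mt-Nd1 was at 221 CPM against 2224 in TWT, a ratio of 0.0995 (0.0358 to 0.223). mt-Nd3 had 0 UMIs against 47 in TWT. mt-Co1, for a subunit of cytochrome c oxidase, was at 12127 against 20067 CPM, a ratio of 0.604 (0.533 to 0.684). TWT was the high library in these genes, with IL6 KO at 571 and DKO at 400 CPM of mt-Nd1. Transcripts of the mitochondrial genome held 7.06% of non-globin UMIs of the red cell group in TWT, 4.84% in IL6 KO, 3.86% in DKO and 2.9% in TKO, and 3.3%, 2.94%, 2.34% and 2.84% in all other cells. TWT was the highest library in both, by a smaller margin in the other cells. The part of a library-wide difference in these ratios was not tested.

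**Figure D4:**
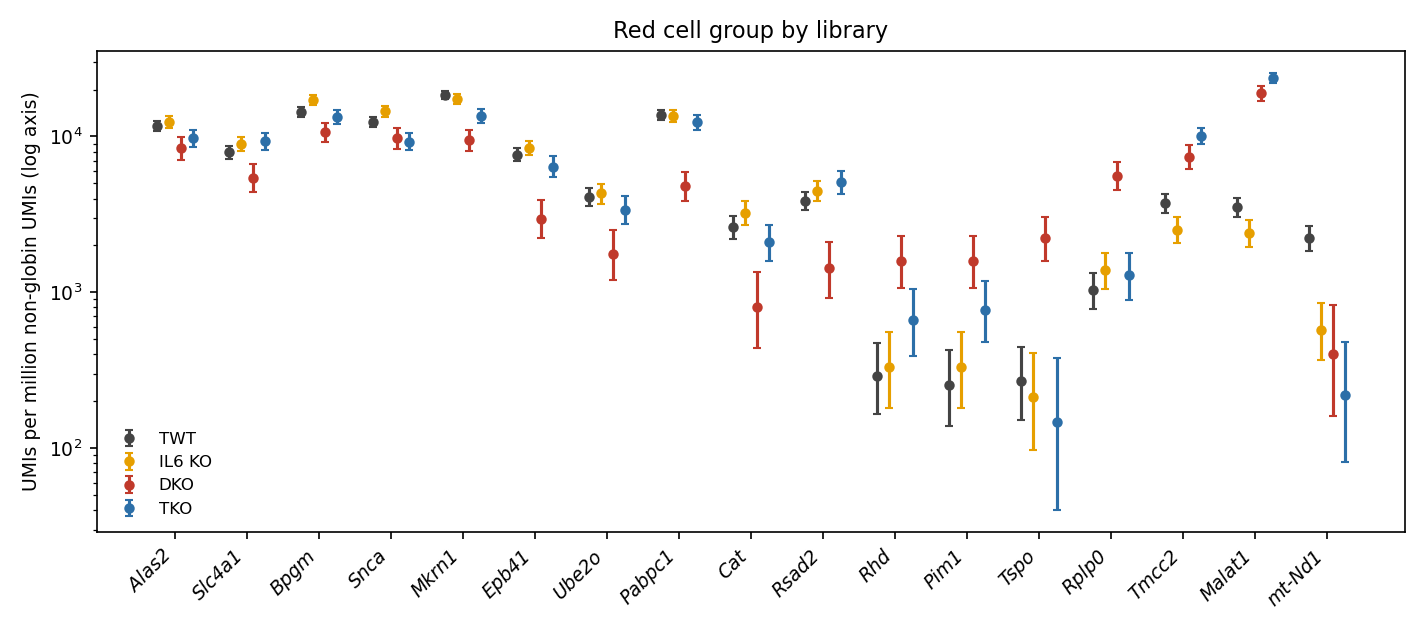
CPM of 17 genes on a log axis in the red cell group of the 4 libraries, with exact 95% Poisson intervals. Alas2, Slc4a1 and Bpgm lie within 2-fold of TWT in every library, Rplp0 and Tspo are highest in DKO (5598 and 2228 CPM) and Malat1 and Tmcc2 are highest in TKO (23775 and 10100 CPM).

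DKO differed from TWT in the most genes. Its red cell group rested on 19 cells and 17505 non-globin UMIs, against 55315 in TWT. Of 310 measured genes 70 were higher (22.6%) and 38 lower (12.3%), and the median log2 ratio over all of them was 0.21. Higher genes were 64.8% of these calls, 76% relative to all UMIs and 46.5% with median-of-ratios size factors. Ribosomal protein genes were the largest group of the higher genes, with 33 of 57 higher, none lower and a median log2 ratio of 1.13. Rplp0, of the ribosomal stalk, had 57 UMIs in TWT, 58 in IL6 KO, 98 in DKO and 35 in TKO. That is 1030, 1381, 5598 and 1290 CPM, and 5.43-fold more in DKO than in TWT (3.88 to 7.67). Rpsa was at 597, 524, 2456 and 1032 CPM and Rpl21 at 307, 333, 1371 and 479 CPM. The intervals of Rplp0 in DKO did not overlap with those of any other library. Summed, ribosomal protein transcripts held 9.04% of non-globin UMIs in DKO against 3.94% in TWT, 3.71% in IL6 KO and 4.29% in TKO. In all other cells they held 15.2%, 13.9%, 14.3% and 14.7% in TWT, IL6 KO, DKO and TKO, so the DKO excess was not seen there.

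Other genes high in DKO alone were Tspo, a cholesterol-binding protein of the outer mitochondrial membrane, Mgst3, a membrane glutathione transferase, and Slc3a2, the heavy chain of amino acid transporters. Tspo had 15, 9, 39 and 4 UMIs in TWT, IL6 KO, DKO and TKO, or 271, 214, 2228 and 147 CPM, and was 8.22-fold higher in DKO than in TWT (4.43 to 16). It was found in 12 of 19 DKO cells and in 13 of 91, 9 of 68 and 4 of 40 of the others. Mgst3 was at 434, 286, 1885 and 184 CPM and Slc3a2 at 253, 95.2, 1085 and 405 CPM. Pim1, a kinase that is induced by cytokine signals, was at 253, 333, 1600 and 774 CPM, 6.32-fold higher in DKO (3.22 to 13). Tfrc, the transferrin receptor, was at 687, 548, 1600 and 958 CPM, and Rhd at 289, 333, 1600 and 663 CPM.

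The genes lower in DKO came from several lists. Epb41, the protein 4.1 that joins spectrin to actin, was at 7629 CPM in TWT (6918 to 8393), 8475 in IL6 KO, 2971 in DKO (2219 to 3896) and 6414 in TKO, a ratio of 0.389 to TWT (0.286 to 0.52). Sptb, for β-spectrin, was at 705, 381, 114 and 737 CPM, with 2 UMIs in DKO. Catalase, Cat, was at 2621, 3238, 800 and 2101 CPM, a ratio of 0.305 (0.163 to 0.529), while Prdx2, the peroxiredoxin of red cells, was at 12454 against 6942 CPM, a difference within 2-fold. Ube2o, an E2/E3 enzyme that clears ribosomes from reticulocytes, was at 4086, 4309, 1771 and 3391 CPM, a ratio of 0.433 (0.288 to 0.633). Pabpc1, which binds poly(A) tails, was at 13739, 13546, 4799 and 12312 CPM, a ratio of 0.349 (0.275 to 0.438). Rsad2, an interferon-induced antiviral protein, was at 3869, 4476, 1428 and 5087 CPM, a ratio of 0.369 (0.234 to 0.56). Slc25a37, the mitoferrin that brings iron into mitochondria, was at 6653, 6166, 3313 and 4608 CPM, a ratio of 0.498 (0.371 to 0.658). Cdc25b, a cell cycle phosphatase, had 42 UMIs in TWT, 30 in IL6 KO, 0 in DKO and 7 in TKO.

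By group, the lists of terminal maturation and membrane genes did not move one way in DKO. Of 30 terminal maturation genes 3 were higher and 4 lower, with a median log2 ratio of -0.40, of 13 membrane genes 3 were higher and 3 lower, and of 10 ubiquitin genes 2 were lower, with a median of -0.63. Of 6 genes of oxidative stress defence 1 was higher and 1 lower, with a median of 0.22. Of 8 measured neutrophil markers 3 were higher and none lower, with a median of 0.76, and their part in the DKO differences was not tested. The 2 measured B cell markers were both lower, and Igkc had 1 UMI in DKO against 98 in TWT. Immunoglobulin transcripts also held less of the other cells in DKO, at 0.13% of UMIs against 2.78% in TWT. Of the 70 higher genes 4 were also at least 2-fold higher in the other cells of DKO, and of the 38 lower genes 13 were also lower there.

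DKO and TKO differ by label in IL6, but each was 1 library, and other differences between the 2 marrows cannot be told apart from it. In the red cell group 48 of 228 measured genes were higher in DKO than in TKO (21.1%) and 28 lower (12.3%). Ribosomal protein genes were higher in 27 of 41 and lower in none, with a median log2 ratio of 1.24 against 0.0773 over all 228 genes. Tspo was 15.1-fold higher in DKO (5.45 to 58.2), Mgst3 10.2-fold (3.97 to 33.6) and Rplp0 4.34-fold (2.92 to 6.58). Chil3, Lcn2 and Lyz2, which are known from neutrophils and other myeloid cells, were also higher, at 4.99-fold, 4.39-fold and 4.32-fold, and the neutrophil list moved with them, at 25250 CPM in DKO and 12680 in TKO. Its part in these differences was not tested. Rsad2 was lower in DKO at 0.281 times TKO (0.176 to 0.432), Cat at 0.381 times (0.196 to 0.692), Pabpc1 at 0.39 times (0.303 to 0.496) and Epb41 at 0.463 times (0.333 to 0.635). Malat1 and Tmcc2, the genes highest in TKO, differed by less than 2-fold between these libraries, with DKO at 0.798 times (0.697 to 0.912) and 0.73 times TKO (0.587 to 0.903). All 5 measured heme synthesis genes stayed within 2-fold, and Alas2 was at 0.863 times (0.7 to 1.06).

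The DKO genes were also looked up in globin-rich barcodes under 200 genes without leukocyte or cycle markers, which the rule had left out. In DKO these were 26 barcodes with 6515 non-globin UMIs, below the minimum set for a comparison, against 447 barcodes and 132086 UMIs in TWT. Of the higher genes 56 had 30 UMIs there over both libraries, of which 50 were at least 2-fold higher, beside 33.2% of all 349 such genes. Of the 38 lower genes 33 were at least 2-fold lower, beside 35.2% of all. Rplp0 stood at 5372 CPM in DKO against 1022 in TWT, 1454 in IL6 KO and 1446 in TKO, and Epb41 at 1688 against 9653, 10017 and 9479 CPM. These barcodes come from the same libraries, so they are a second look at the same marrow and no replicate. Of the 40 genes higher in TKO, 20 could be measured there and 0 were 2-fold higher, beside 1.2% of all 501 genes.

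Malat1 was uneven from cell to cell. In the red cell group it had 194 UMIs in TWT, 101 in IL6 KO, 332 in DKO and 645 in TKO, or 3507, 2405, 18966 and 23775 CPM. It was found in 20 of 91 and 18 of 68 cells of TWT and IL6 KO, and in most cells of DKO and TKO, 11 of 19 and 22 of 40. Cells with at least 10 Malat1 UMIs were 5 in TWT (5.49%, 1.81 to 12.4), 2 in IL6 KO (2.94%, 0.358 to 10.2), 8 in DKO (42.1%, 20.3 to 66.5) and 14 in TKO (35%, 20.6 to 51.7). The 2 highest cells held 67.5% and 83.2% of the Malat1 UMIs of TWT and IL6 KO, and 37.3% and 19.2% of those of DKO and TKO. Between 5 and 14 UMIs lay only 1, 0, 2 and 0 cells, so the limit at 10, which was set after the values had been seen, cut through few. In the other cells Malat1 was at 6297, 6666, 5695 and 5493 CPM, with no excess in DKO or TKO.

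As a share of all filtered cells, red cells rich in Malat1 were 0.0646% in TWT, 0.0247% in IL6 KO, 0.0787% in DKO and 0.168% in TKO, and those poor in it 1.11%, 0.815%, 0.108% and 0.313%. Against TWT, the poor cells were 0.0974 times as frequent in DKO (0.0469 to 0.183) and 0.282 times in TKO (0.174 to 0.441). The rich cells were 1.22 times as frequent in DKO (0.352 to 4.73) and 2.61 times in TKO (0.888 to 9.25), and neither interval excludes 1. Among filtered cells, the shortfall of the red cell group in DKO and TKO thus lay in cells poor in Malat1. The rich cells were too few to be told from TWT. For TKO this depended on the gene minimum. Globin-rich barcodes under 200 genes without leukocyte or cycle markers numbered 447 in TWT and 468 in TKO, and 0 of either were rich in Malat1. At any gene number, rich barcodes were 1.11% of such barcodes in TWT (0.41 to 2.41) and 2.95% in TKO (1.66 to 4.81). In IL6 KO they were 0.506% and in DKO 21.7% (10.9 to 36.4).

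Tmcc2, a membrane protein of the endoplasmic reticulum, went with Malat1 from cell to cell. In the whole red cell group it was at 3724 CPM in TWT, 2524 in IL6 KO, 7369 in DKO and 10100 in TKO. In cells rich in Malat1 it was at 16190, 4591, 13171 and 22310 CPM, and in those poor in it at 2700, 2410, 2685 and 2563 CPM. The TKO excess of 2.71-fold (2.26 to 3.27) was not present among the poor cells, where the log2 ratio was -0.07. Of the 40 genes higher in TKO, 8 could be measured in cells poor in Malat1 and 4 were 2-fold higher there, beside 6.04% of all 265 genes. In DKO 48 of 51 were, beside 26% of all 258 genes, on 9685 non-globin UMIs, just under the minimum set for a comparison of its own, and Rplp0 was at 8570 CPM against 1096 in TWT, 1456 in IL6 KO and 1908 in TKO. Both comparisons share the TWT cells, and the poor cells are part of the red cell group in which these genes were called. In DKO they held 9685 of the 17505 non-globin UMIs of that group. These counts in TKO and DKO were therefore partly set in advance, and the shares over all genes are no fair measure for them.

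Ribosomal protein transcripts were also read cell by cell. They held 0.458 to 14.2% of non-globin UMIs in red cell group cells of TWT with a median of 3.34%, 1.31 to 17.6% with a median of 3.18% in IL6 KO, 1.96 to 21.4% with a median of 6.66% in DKO and 0.521 to 24% with a median of 2.28% in TKO. The DKO median was the highest, and all ranges overlap. The DKO cell at 21.4% was also the deepest of its group, with 2035 of 17505 non-globin UMIs. It therefore weighs most in the summed DKO values of these genes. Gm42418, a noncoding gene on chromosome 17 that overlaps a ribosomal RNA repeat, was lower in DKO at 89060 CPM against 182970 in TWT, 192363 in IL6 KO and 181687 in TKO. It takes a large part of non-globin UMIs, and its part in the DKO ratios of other genes was not tested.

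**Figure D5:**
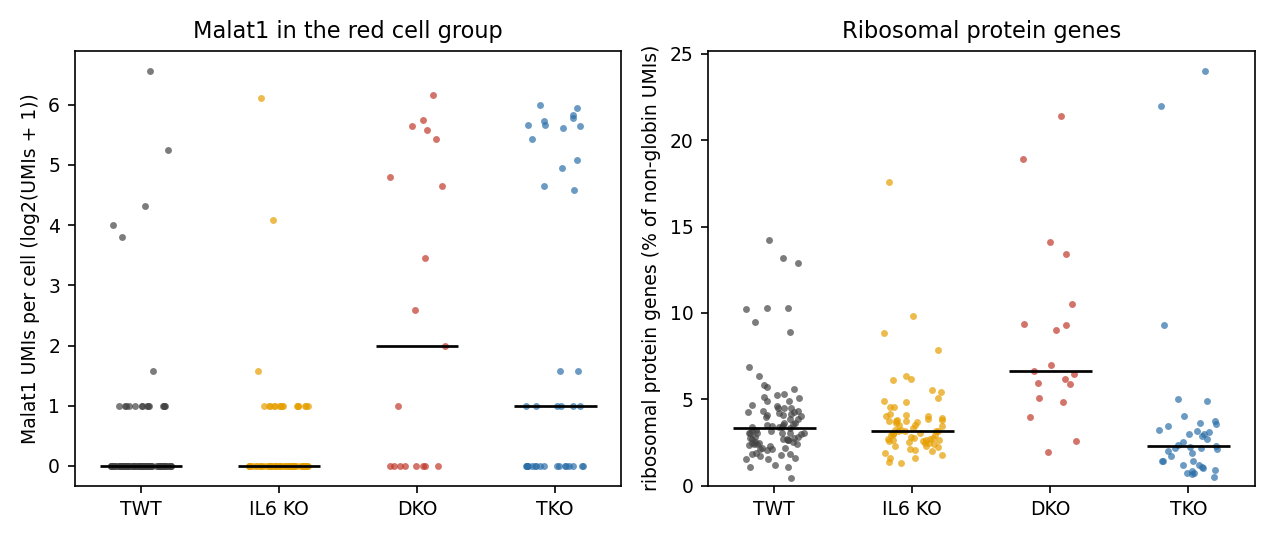
Each point is a cell of the red cell group, with log2 of Malat1 UMIs plus 1 on the left and ribosomal protein transcripts as a percent of non-globin UMIs on the right, by library. Black lines are medians, which stand at 3.34, 3.18, 6.66 and 2.28% on the right for TWT, IL6 KO, DKO and TKO, and cells with 10 or more Malat1 UMIs number 5, 2, 8 and 14.

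Receptor genes for IL-6 had few UMIs in erythroid cells. Il6ra, the ligand-binding chain, had 8 UMIs in 7 erythroid cells of TWT, 18 in 9 of IL6 KO, 1 in 1 of DKO and 18 in 10 of TKO. Of these, 1, 0, 1 and 0 UMIs were in the red cell group, and 7, 18, 0 and 18 in leukocyte-marked members. Over all members Il6ra stood at 30.2 CPM in TWT (13 to 59.5), 92.9 in IL6 KO (55 to 147), 23.6 in DKO (0.598 to 131) and 109 in TKO (64.8 to 173). In B cells it stood at 55.3, 60.5, 74.6 and 53.4 CPM. The TKO members lay above B cells of that library (50.9 to 56), with all of their Il6ra UMIs in leukocyte-marked members. After each cell was thinned to 200 non-globin UMIs, Il6ra had a UMI in 0 of 150, 0 of 119, 0 of 24 and 1 of 81 members, and 3 counts in place of 0 would be 2%, 2.52% and 12.5% in the first 3. In B cells, thinned alike, the share was 1.45%, 1.63%, 1.52% and 0.813%. At this depth the members' share could not be told from that of B cells. Il6st, the shared signaling chain gp130, had 1, 2, 1 and 1 UMIs. Kit, the stem cell factor receptor of early precursors, had 0 UMIs in all members, where 3 counts in place of 0 would be 2%, 2.52%, 12.5% and 3.7% of cells in TWT, IL6 KO, DKO and TKO.

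Globin balance was nearly the same in all genotypes. In the red cell group Hbb-bs held 42.1% of all UMIs in TWT, 41.9% in IL6 KO, 41.9% in DKO and 41.7% in TKO, and Hba-a1 15.7%, 16.2%, 15.8% and 15.6%. The ratio of α to β globin UMIs was 0.504, 0.512, 0.476 and 0.51. Over single cells its middle range ran from 0.463 to 0.557 in TWT, 0.467 to 0.564 in IL6 KO, 0.429 to 0.529 in DKO and 0.463 to 0.558 in TKO, so the ranges overlap, with DKO the lowest. Hba-a2 made up 42.7%, 42.1%, 38.4% and 42.3% of α-globin UMIs. In globin-rich barcodes under 200 genes it made up 42.7%, 42.5%, 38.6% and 43.4%, so DKO was the lowest in both. The split within this pair is uncertain, and the part of that uncertainty in the DKO value was not tested. Embryonic globins, Hbb-y, Hbb-bh1, Hbb-bh2 and Hba-x, had 0 to 2 UMIs each in the members of any library. The globins chose the cells, so these values describe them and test nothing.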

How the data were processed

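The deposited files hold UMI counts per gene and barcode, as whole numbers with no normalization, which the authors made with Cell Ranger (3.0.2 in the file header) on mm10; the submitters' processing notes also name Seurat 4. Here cells were filtered and chosen by the rule above, UMIs were summed per library and group, and CPM were taken per 1000000 non-globin UMIs, so that globin cannot move other genes. A ratio has an added 1 CPM on the log2 scale and was called from 2-fold, in pools of at least 10000 non-globin UMIs. Named genes were the globins, Alas2, Slc4a1, Diaph1, Il6ra, Il6st, for each of 30 lists the highest or most changed measured genes, and the 10 highest and lowest genes per comparison; Mki67, Klf1, Kit, Xist and Gm42418 were added after their values were seen, and some genes are not reported here. Members and lists were chosen with earlier results of these data known. Shares have Clopper-Pearson and sums Poisson intervals. The calling rule was tested on simulated data. Python 3.11.15, numpy 2.4.6, pandas 2.3.3, scipy 1.17.1, scanpy 1.11.5 (Scrublet) and matplotlib 3.10.9 were used. The study's own filter (500 to 4000 genes) was an alternative.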

Additional observations from a re-analysis of the deposited data

How the results depend on the processing

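No paired analysis was possible because each genotype is 1 library, and no replicate could be left out. Counting depth limits all values, most of all in DKO. Shares are given for TWT, IL6 KO, DKO and TKO in that order. DKO was lowest and TWT highest under each alternative run for the share of members in all 4 libraries, while TKO passed IL6 KO by 12 erythroid genes and without a gene minimum. Members were 1.55, 1.16 and 0.662% of cells in TWT, IL6 KO and TKO at 40% globin and 1.19, 0.913 and 0.385% at 60%, and 2.34 and 1.36% in TWT and TKO at 10%. They were 0.707, 0.548, 0.114 and 0.503% with 500 to 4000 genes, 5.53, 3.78, 0.374 and 4.04% by 12 erythroid genes, and 1.19% in IL6 KO without cells rich in neutrophil markers. The next settings were chosen after seeing the data. No gene minimum gave 7.48, 5.44, 0.51 and 6.48%, the red cell group alone 1.18, 0.839 and 0.481% in TWT, IL6 KO and TKO, and cells without leukocyte markers 1.43, 0.963 and 0.59%. Members with 200 to under 500 genes were 59.7 and 40.7% in TWT and TKO at 10% globin; for TWT, IL6 KO and TKO they were 79.2, 79.8 and 74.5% at 40%, 96.7, 95.9 and 100% at 60%, 77.9, 81.2 and 65.2% without neutrophil-rich cells, 24.1, 26.1 and 12.5% by erythroid genes and 90.1, 94.9 and 83.7% without leukocyte-marked cells. The lowest stage by non-globin UMIs held 20.7, 10.9, 12.5 and 7.41%.

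Counts of genes followed the threshold on UMIs. With at least 100 UMIs, 2, 14 and 54 genes passed for IL6 KO and TKO at 200 to under 500 genes and DKO at 500 to under 2000 (14, 87 and 219 as reported), 50 between stages (188), 31, 16 and 2 for DKO, TKO and IL6 KO in the red cell group (108, 70 and 20), 14 for DKO against TKO (76) and 31 for dividing cells (160). With at least 10 UMIs and no CPM minimum these were 126, 262, 929, 367, 289, 244, 118, 213 and 346. At 3-fold they were 5, 43, 113, 41, 27, 8, 20 and 101, with the stages within 1.5 times of the reported count. At the higher stages IL6 KO and TKO had 186 and 73 genes at 500 to under 2000 and 77 and 73 at 2000 or more. These were 27, 2, 12 and 11 with at least 100 UMIs, 810, 558, 549 and 598 with at least 10, and 71, 17, 31 and 37 at 3-fold. At 500 to under 2000 genes 40% globin gave 56 and 46, and IL6 KO had 112 without neutrophil-rich cells; at 2000 or more free RNA subtraction gave 242 and 266, and stages by non-globin UMIs 130 and 111. All members pooled gave 278, 169 and 396 for IL6 KO, TKO and DKO in place of any stage, free RNA subtraction 31 for IL6 KO at 200 to under 500 genes and 36 in the red cell group, 40% globin 13 for IL6 KO in that group, cells without neutrophil-rich members 129 for DKO at 500 to under 2000, and the mean of each cell's CPM 100 for dividing cells. Without cells of at least 10 Malat1 UMIs, chosen after seeing the data, TKO had 36 and the log2 ratio of Tmcc2 turned from 1.44 to -0.07. Median-of-ratios size factors moved the median log2 ratio of DKO in the red cell group from 0.21 to -0.00941, and all UMIs moved it to 0.382. Removal of Scrublet doublets was not run for DKO. Without Malat1-rich cells DKO fell below the minimum of UMIs, and its genes are given above with no count here. Not run were the DKO comparisons of the red cell group within 200 to under 500 genes, those between stages, of dividing cells or at 2000 or more genes at 40% globin, those at 200 to under 500 genes by non-globin UMIs, those at 500 to under 2000 genes with free RNA subtracted, and those of DKO at that stage, IL6 KO at both higher stages and TKO at 2000 or more without leukocyte-marked cells, because too few UMIs were left or the neutrophil level exceeded that of the library.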
